A study of Dunaliella salina with 18 samples.

Results

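Transcript levels at 24h were compared with those at 4h in L2H, 1 of 2 arms of a salinity experiment, by RNA sequencing of Dunaliella salina, strain CCAP 19/3, a unicellular green alga that tolerates salt. Of the 18 libraries of the series, 6 belong to this comparison: 3 of L2H cultures at 24h and 3 at 4h, and 3 L2H libraries at 0h serve as the starting level. The other arm, H2L, was sampled at the same times. Every group holds the same strain, and the groups are labelled by arm and time. The titles also carry tags that differ between groups, as described below. The arms are named after the sample titles, because the titles and the condition field give opposite directions of the salinity change, so neither arm is assigned one here. The labels do not state how cultures were grown, divided or lit, nor whether the 3 libraries of a group came from separate cultures. P-values therefore reflect how far these libraries differ among themselves, and that spread may be technical.

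Dunaliella salina has no rigid cell wall, so its cells swell or shrink when the salinity around them changes. Cells then make or break down glycerol, the osmolyte that balances the salt outside, and adjust ion transport, photosynthesis and membrane lipids. The table names its 43236 transcripts by serial identifiers alone, and 0 of these were found in the available RefSeq gene table, made for a different strain. It can therefore not be said which transcripts belong to glycerol metabolism or any other pathway, and transcripts are given by identifier.

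Each value is an abundance scaled by the authors for transcript length and library depth, in units that the sources used here do not name. Library totals lay between 768508 and 787172 units at 24h and between 749880 and 792542 at 4h. The number of reads behind them is unknown, and values scaled in this way do not show a change in the total RNA per cell. In bulk samples, fewer cells with a transcript and less of it per cell cannot be told apart. The titles carry tags whose meaning is not stated. The tags at 24h differ from those at 4h, so time and tag cannot be told apart between 24h and 4h within an arm, while 0h and 4h carry the same tags. Library 1 has the same tag in both arms at each time, as has library 2. Library 3 has others, which differ between the arms, so for library 3 arm and tag cannot be told apart. Libraries of the same number at different times are separate libraries, and the labels do not say whether they came from the same culture. Levels given over time by library number compare such libraries and follow no culture.

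Library 3 at 4h stood apart from the other libraries at 4h. Across transcripts, Pearson's r was 0.967 between libraries 1 and 2 at 4h, and 0.951 and 0.950 between either of them and library 3. Library 3 at 4h had a higher r with library 3 at 0h (0.967) and with library 3 at 24h (0.960). These r describe how alike whole profiles are, since transcripts of a library are no replicates. At 24h, r was 0.967 between libraries 1 and 2, and 0.956 and 0.962 with library 3. The named changes in which it lay far from the other libraries are given with and without it.

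At 24h 641 transcripts were higher and 253 lower than at 4h in the L2H arm, out of 34166 tested (limma on log2 values, Benjamini-Hochberg adjusted p under 0.05). These 894 calls are 2.62% of the transcripts tested, with 1.88% higher and 0.741% lower. The transcripts called higher had a median level of 15.3 units at 24h and 6.74 at 4h. Those called lower had a median level of 11.4 units at 24h and 27.1 at 4h. Over all transcripts tested these medians were 4.84 units at 24h and 4.52 at 4h.

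In the main fit the rises were many and moderate, and the falls fewer, with the steepest changes among them. The excess of rises depends on the scaling and on the groups fitted, as given further on. The median log2 change was 1.02 among transcripts called higher and -1.13 among those called lower, against 0.03 over all transcripts tested. Of the 641 transcripts called higher, 335 changed at least 2-fold, 25 at least 4-fold and 0 at least 8-fold on the log2(value + 1) scale. Of the 253 called lower, 155 changed at least 2-fold, 22 at least 4-fold and 7 at least 8-fold. The calls of at least 2-fold are 1.43% of the transcripts tested. The largest rise called was 2.64 and the largest fall -4.44 on the log2 scale. The libraries of the 2 times did not overlap in 888 of the 894 called transcripts, and in 19.2% of all transcripts tested.

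**Figure D1:**
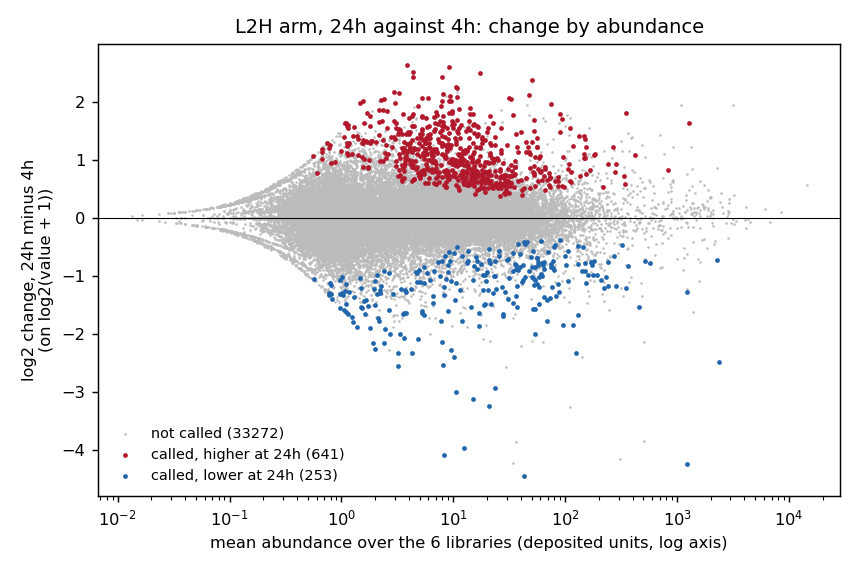
L2H log2 change, 24h minus 4h (vertical axis, on log2(value + 1)), against the mean abundance over the 6 libraries (horizontal log axis, deposited units). Each point is 1 transcript. The 641 transcripts called higher at 24h (red) crowd between means of about 3 and 30 units, and the 253 called lower (blue) reach down to -4.44.

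The direction of the calls varied with abundance. At means of 3 to 10 units over the 6 libraries, 230 of the called transcripts were higher and 46 lower at 24h, and at 10 to 30 units 227 were higher and 48 lower. At 30 to 100 units 82 were higher and 71 lower, and at 100 to 1000 units 29 were higher and 32 lower. Of the 117 transcripts with a mean of 1000 units or more, 1 was called higher and 4 lower. The percentage called was 0.866% under 3 units, where the median SE of the log2 change was 0.352, and 5.5% at 30 to 100 units, where the median SE was 0.160. The share of calls that were higher, 71.7%, depends on how libraries are scaled, and was 60.2% with quantile-normalized values and 51.0% when libraries were set to the same upper quartile. With only the 2 L2H groups in the fit, 57 transcripts were called, and here falls held the majority (22 higher and 35 lower, 38.6% higher).

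The number of calls depended on single libraries. It was 226 and 195 without library 1 or 2 at 24h, and 109 and 150 without library 1 or 2 at 4h. Without library 3 at 4h it was 1871, or 5.48% of transcripts tested, and 827 of the 894 were among them with the same direction. With libraries 1 and 2 of each group averaged and counted as 1 sample, limma called 1 transcript, and 2379 had an unadjusted p under 0.05.

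The 2 largest rises that met the naming rule were c47579_g1_i1 and c43786_g1_i1. The transcript c47579_g1_i1 had 14.1, 13.2 and 20.3 units in libraries 1, 2 and 3 at 24h, against 0.56, 0.80 and 6.17 at 4h. All libraries at 24h lay above all at 4h, where library 3 was the highest. Its log2 change was 2.61 (SE 0.54, adjusted p = 0.0172), and 3.31 without library 3 at 4h (adjusted p = 0.000978). At 0h libraries 1, 2 and 3 had 5.05, 4.04 and 5.75 units, so its level was lowest at 4h in libraries 1 and 2 and highest at 24h in all 3. The call ended when library 1 or 2 at 4h was dropped from the L2H arm (adjusted p = 0.116 and 0.0984), and when library 1, 2 or 3 at 24h was (0.0586, 0.0566 and 0.0548).

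The transcript c43786_g1_i1 had 27.6, 28.1 and 32.6 units at 24h, against 3.01, 2.38 and 10.6 at 4h. The groups did not overlap, and library 3 was again the highest at 4h. The log2 change of c43786_g1_i1 was 2.49 (SE 0.38, adjusted p = 0.00357), and it was 3.04 without library 3 at 4h (adjusted p = 5.99e-05). At 0h it had 12.9, 12.7 and 10.7 units, between both later times in libraries 1 and 2. The call stood in all 18 fits that left out 1 library, and was lost with only the 2 L2H groups in the fit (adjusted p = 0.0939).

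The 2 largest falls were c43073_g2_i1 and c313_g2_i1. The transcript c43073_g2_i1 had 1.41, 2.21 and 5.21 units at 24h, against 99.9, 100.7 and 47.2 at 4h. Libraries 1 and 2 at 4h were more than 40 units above library 3, and all 3 stood far above every library at 24h. Its log2 change was -4.44 (SE 0.84, adjusted p = 0.0118), and -4.80 without library 3 at 4h (adjusted p = 0.00730). At 0h libraries 1 and 2 had 0 and 0.48 units and library 3 had 28.8. In libraries 1 and 2 the transcript was thus near 0 at the start, high at 4h and low again at 24h.

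The transcript c313_g2_i1 followed the same course at a higher level. It had 114, 99.8 and 138 units at 24h, against 2906, 2683 and 1412 at 4h. On the log2 scale it fell by 4.24 (SE 0.81, adjusted p = 0.0121), and the change was -4.57 without library 3 at 4h (adjusted p = 0.00810). At 0h it had 51.6, 45.7 and 1296 units, so library 3 was close at 0h and 4h while libraries 1 and 2 were not. Without L2H 4h library 1 or 2 neither fall was called (adjusted p = 0.0764 and 0.0649 for c43073_g2_i1, 0.0801 and 0.0659 for c313_g2_i1). The same held without L2H 24h library 1 or 2 (0.0568 and 0.0522, 0.0511 and 0.0545), while the changes stayed between -4.05 and -4.35.

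**Figure D2:**
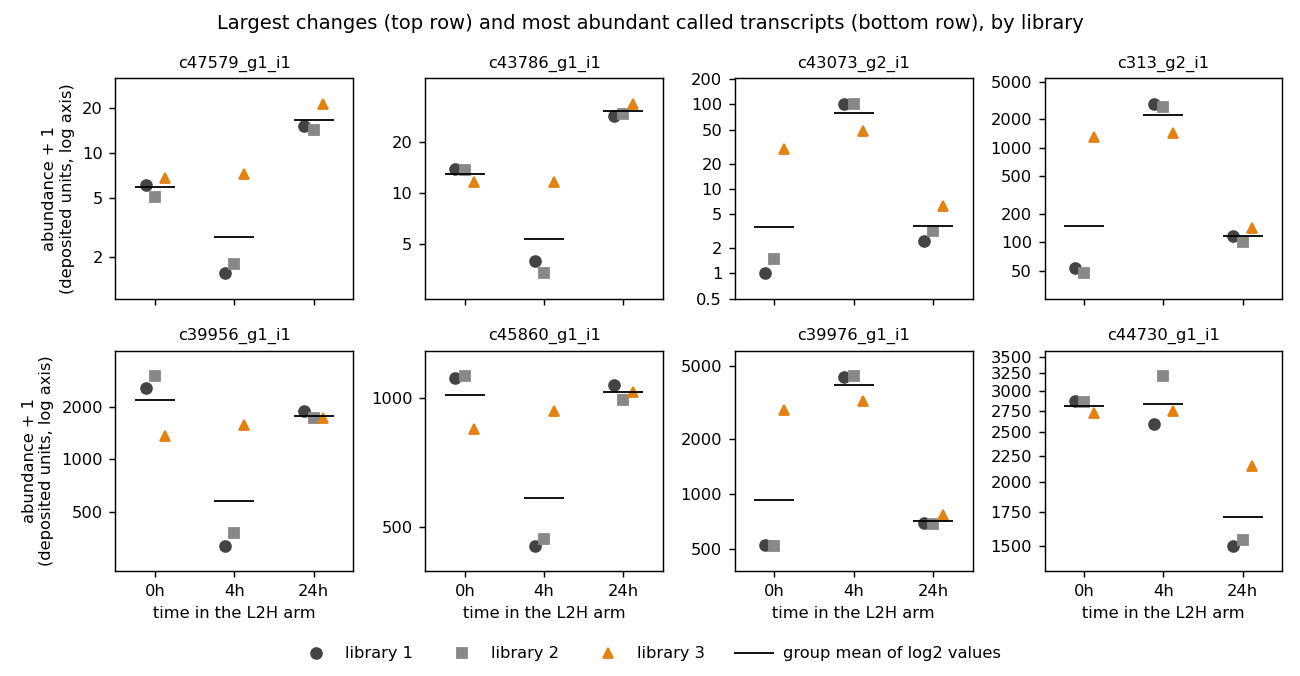
Abundance plus 1 (vertical log axes, deposited units) of 8 named transcripts in each L2H library at 0h, 4h and 24h; circles, squares and triangles are libraries 1, 2 and 3, and the bar is the mean of the log2 values. The top row shows the largest rises and falls from 4h to 24h and the bottom row the most abundant called transcripts. In c313_g2_i1 library 3 had 1296 units at 0h and 1412 at 4h, while libraries 1 and 2 were far higher at 4h than at 0h or 24h.

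Among the most abundant transcripts called, c39956_g1_i1 and c45860_g1_i1 were higher at 24h. The transcript c39956_g1_i1 had 1885, 1728 and 1718 units at 24h, against 317, 376 and 1571 at 4h. Library 3 at 4h was close to the libraries at 24h and libraries 1 and 2 were far below. Its log2 change was 1.63 (SE 0.42, adjusted p = 0.0482), and at 0h it had 2569, 3013 and 1362 units. The transcript c45860_g1_i1 had 1075, 988 and 1034 units at 24h, against 450, 468 and 932 at 4h, with a log2 change of 0.83 (SE 0.21, adjusted p = 0.0494). At 0h it had 1114, 1128 and 845 units. In both transcripts the level of libraries 1 and 2 was high at 0h, low at 4h and high again at 24h, while library 3 had similar levels at 0h and 4h.

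Both of these calls lay at the edge of the threshold. Of the 18 fits that left out 1 library, 16 lost each call, and the 2 that kept it were those without L2H library 3 at 0h or at 4h. Without library 3 at 4h the log2 change was 2.36 for c39956_g1_i1 (adjusted p = 7.48e-05) and 1.17 for c45860_g1_i1 (adjusted p = 0.000278).

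The most abundant transcripts called lower were c39976_g1_i1 and c44730_g1_i1. The transcript c39976_g1_i1 had 692, 680 and 761 units at 24h, against 4361, 4416 and 3235 at 4h, and the groups stood far apart. On the log2 scale it fell by 2.48 (SE 0.47, adjusted p = 0.0120), and the change was -2.63 without library 3 at 4h (adjusted p = 0.00891). At 0h it had 520, 519 and 2887 units, so libraries 1 and 2 were low at 0h and at 24h, and library 3 was high at 0h. It was no longer called once L2H 4h library 1 or 2 was left out (adjusted p = 0.0760 and 0.0643), nor without L2H 24h library 1 or 2 (0.0514 and 0.0522).

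The transcript c44730_g1_i1 had 1505, 1544 and 2150 units at 24h, against 2593, 3208 and 2741 at 4h. The lowest library at 4h was above the highest at 24h. The log2 change, -0.73, was smaller (SE 0.18, adjusted p = 0.0438). At 0h it had 2866, 2852 and 2717 units, and here library 3 lay with libraries 1 and 2 at both early times. The call was lost without library 1 or 2 of any of the 6 groups of the series (adjusted p = 0.0558 to 0.192).

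A single transcript, c22914_g1_i1, was still called with libraries 1 and 2 averaged (log2 change 2.17, adjusted p = 0.0372). It had 6.62, 5.10 and 6.04 units at 24h, against 0.69, 0.49 and 0.49 at 4h. All libraries of a group lay close together, library 3 included. Over all libraries its log2 change was 2.15 (SE 0.17) and its adjusted p, 1.7e-05, was the lowest of the comparison. At 0h it had 0.70, 0.41 and 0.79 units, so this transcript stayed low until 4h and was high at 24h. It was called in all 18 fits that left out 1 library.

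Few transcripts were listed at 0 in every library of 1 time and present in every library of the other. There were 9 with at least 1 unit in each library at 24h and none at 4h, and 16 the other way round, of which 5 and 11 were called. Over all transcripts tested 2.62% were called. The 9 and 16 were picked for groups that do not overlap, so a higher share of calls is built in. The reads behind these values are unknown, so a value of 0 does not show that a transcript was absent. Among the 9, c46368_g3_i1 had 3.38, 3.79 and 2.17 units at 24h (adjusted p = 0.0191) and c49046_g4_i1 had 2.94, 2.59 and 3.27 units (adjusted p = 0.00880). The first had 0.89, 0.83 and 0 units at 0h and the second 2.06, 4.70 and 5.47, so that c49046_g4_i1, of the 3 L2H times, was listed at 0 at 4h only. For c46368_g3_i1, the call ended when library 1 or 2 at 4h (adjusted p = 0.0904 and 0.0850) or library 1 or 2 at 24h (0.0772 and 0.0893) was dropped. For c49046_g4_i1, only the fit without L2H 4h library 1 did so among the fits that left out 1 library (adjusted p = 0.0530).

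Among the 16 listed at 0 at 24h, c65355_g1_i1 was the most abundant, with 17.6, 20.5 and 11.2 units at 4h (adjusted p = 0.00418). At 0h it was listed at 0 in libraries 1 and 2 and had 11.2 units in library 3. It was called in all 18 fits that left out 1 library. The transcript c31666_g1_i1 had 3.69, 2.39 and 5.93 units at 4h (adjusted p = 0.0251) and 0, 0 and 2.48 at 0h. Its call was lost without any 1 of the 6 libraries of the 2 times (adjusted p = 0.0526 to 0.110). Library 3 at 0h held a value above 0 for 11 of these 16 transcripts, and libraries 1 and 2 at 0h were both listed at 0 for 8. For the 9 listed at 0 at 4h, these numbers were 4 and 1. Over all 43236 transcripts, L2H libraries 1, 2 and 3 at 0h listed 13.5%, 12.5% and 13.4% at 0.

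The position of library 3 in these transcripts was then measured over more of them, in a description chosen after the values were seen. In libraries 1 and 2, 278 transcripts with a mean of at least 10 units at 0h or 4h differed at least 4-fold between these times, 153 higher and 125 lower at 4h. Each other library was placed on the axis between them, where 0 is the mean of libraries 1 and 2 at 0h and 1 their mean at 4h, on a linear scale. Library 3 at 4h had a median position of 0.527, with an interquartile range of 0.401 to 0.639. Library 3 at 0h had a median position of 0.550 (0.437 to 0.648). In 97.1% and 97.8% of these transcripts, library 3 at 4h and at 0h lay between the 2 means. Libraries 1, 2 and 3 at 24h did so in 93.5%, 93.5% and 91%. The transcripts were chosen for a gap between these means, so high shares are in part built in and not particular to library 3. Library 3 at both early times was thus about midway on the linear scale between the levels that libraries 1 and 2 had at 0h and at 4h, among transcripts higher at 4h (0.517 at 4h, 0.547 at 0h) and among those lower at 4h (0.550 and 0.561). On the log2(value + 1) scale, tried after the data were seen, it lay nearer the higher of the 2 levels, at 0.725 at 4h and 0.741 at 0h among those higher at 4h, and at 0.327 and 0.355 among those lower at 4h. Why library 3 lies there was not tested.

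On the same axis the 24h libraries stood together. Libraries 1, 2 and 3 at 24h had median positions of 0.365, 0.369 and 0.378 over the 278 transcripts. Among the 153 transcripts that were higher at 4h than at 0h, their medians were 0.245, 0.240 and 0.275 on the linear scale. Among the 125 that were lower at 4h, they were 0.688, 0.683 and 0.681. This contrast between the directions depends on the scale. On the log2(value + 1) scale the 24h medians were 0.452, 0.448 and 0.496 among those higher at 4h, and 0.476, 0.458 and 0.471 among those lower at 4h. In fold terms the 24h levels were thus about midway between those at 0h and 4h in both directions. These positions are a description with no test, and use the 4h libraries 1 and 2 as an end of the axis.

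**Figure D3:**
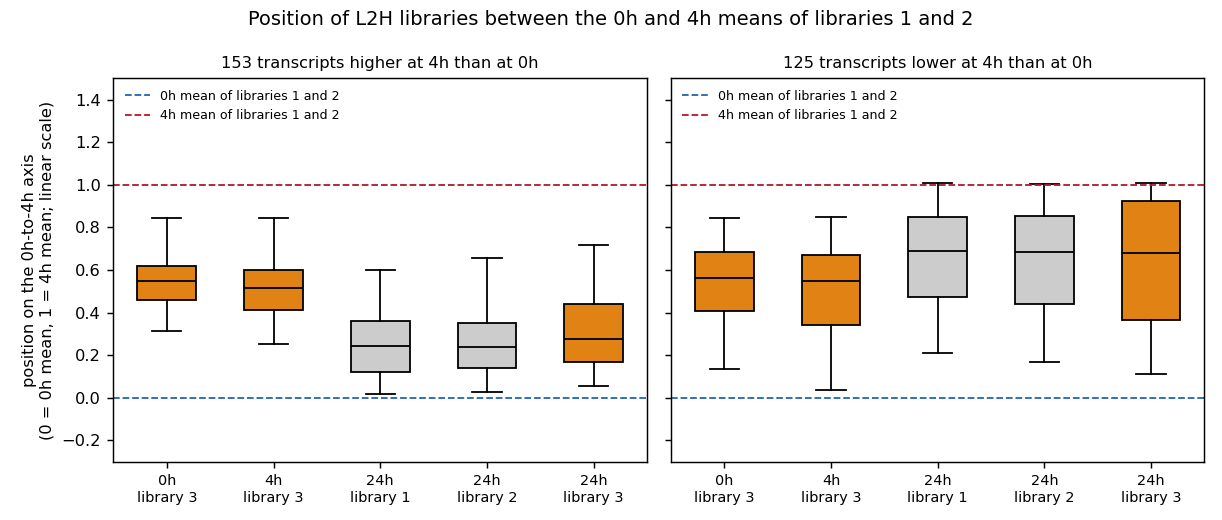
Position of 5 L2H libraries on the axis from the mean of libraries 1 and 2 at 0h (0, blue dashed line) to their mean at 4h (1, red dashed line), linear scale; boxes show the median and quartiles, whiskers the 5th and 95th percentiles, and orange marks library 3. Library 3 at 0h and 4h sits near the middle in the 153 transcripts higher at 4h and in the 125 lower at 4h, while the 24h libraries sit low in the first set (0.240 to 0.275) and high in the second (0.681 to 0.688), a contrast that the log2 scale does not show.

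The level at 0h was also set beside those of the called transcripts. Among the 641 called higher at 24h, the mean log2 level at 0h lay between those at 4h and 24h in 538 (83.9%), below both in 60 and above both in 43. Among the 253 called lower, it lay between in 192 (75.9%), below both in 41 and above both in 20. Over all tested transcripts that were higher or lower at 24h, called or not, it lay between in 33.2% and 28.8%. Called transcripts were chosen for a gap between the 4h and 24h means, which leaves more room between them. Their larger shares are thus built in, and no set with gaps of the same size was compared. The shares among called transcripts also rest in part on library 3. With libraries 1 and 2 alone in every group, the 0h mean lay between in 50.1% of the 3253 transcripts called higher and in 34.1% of the 2044 called lower. With the 0h mean taken from libraries 1 and 2 and the calls unchanged, it lay between in 481 of the 641 and in 131 of the 253. The changes from 0h share libraries with the comparison of 24h and 4h and are given only beside it. The median log2 change of the transcripts called higher was 0.61 at 24h and -0.39 at 4h, both against 0h, and that of the transcripts called lower was -0.32 at 24h and 0.75 at 4h.

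The calls were then made within libraries 1 and 2, each of which has the same tag in both arms, so that library 3 could be read as data not used for the calls. Within libraries 1 and 2, limma called 5297 transcripts (15.5% of those tested), 3253 higher and 2044 lower at 24h. Of them 1486 changed at least 2-fold and 162 at least 4-fold. They included 868 of the 894 transcripts called over all libraries, in the same direction, which is 97.1% of the 894 and 16.4% of the 5297.

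Library 3 changed in the same direction in 3756 of these 5297 transcripts (70.9%), and in 54.8% of all transcripts tested. The direction was shared by 71.7% of those called higher and by 69.7% of those called lower. Regressed on the mean change of libraries 1 and 2, the change in library 3 had a slope of 0.315, and the median ratio of both changes was 0.272. Because the transcripts were chosen by their change in libraries 1 and 2, a slope or ratio under 1 can come from that choice, and whether the step itself was smaller in library 3 was not tested. In the H2L arm, 86.6% of the 8367 transcripts called within libraries 1 and 2 (24.5% of those tested) had the same direction in library 3, with a slope of 0.680. These are values across transcripts, which are not independent replicates, and the difference between the arms in them was not tested.

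**Figure D4:**
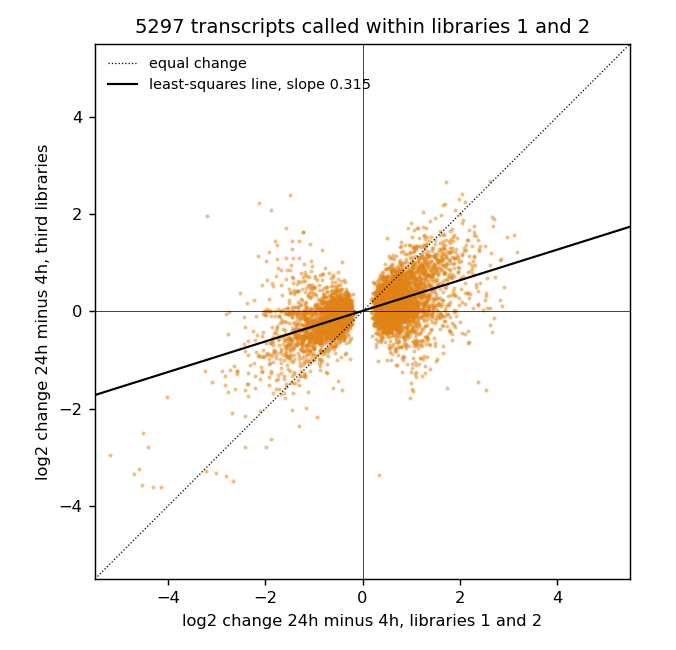
Log2 change from 4h to 24h in library 3 of the L2H arm (vertical axis) against the mean change in libraries 1 and 2 (horizontal axis) for the 5297 transcripts called within libraries 1 and 2. The dotted line marks equal change and the solid line the least-squares fit, whose slope is 0.315; the gap around 0 on the horizontal axis arises because these transcripts were chosen by that change.

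The same step was set beside that of the H2L arm, which shares no library with it. H2L cultures at 24h had 1961 transcripts higher (5.74%) and 3018 lower (8.83%) than at 4h, 4979 calls in all (14.6%). Of the 641 transcripts that were higher at 24h in L2H, 273 were also higher in H2L, which is 42.6% of the L2H list and 13.9% of the H2L list. Of the 253 that were lower in L2H, 42 were lower in H2L, which is 16.6% of the L2H list and 1.39% of the H2L list. In 30 transcripts L2H was higher and H2L lower at 24h, and in 11 L2H was lower and H2L higher. The direction of the log2 change was shared by 71.3% of the 894 transcripts and by 53.7% of all tested, with a median change in H2L of 0.45 for those called higher in L2H and -0.24 for those called lower.

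The difference between the arms was tested directly, with library 3 included, whose tags differ between the arms. The log2 change from 4h to 24h differed between L2H and H2L in 1459 transcripts (4.27%; limma, adjusted p under 0.05), 1029 with a higher change in L2H (3.01%) and 430 with a lower one (1.26%). Most of these differences came with a change in H2L and no call in L2H. Of the 1029, 135 rose in L2H and 838 fell in H2L. Of the 430, 70 fell in L2H and 302 rose in H2L. Of the 894 transcripts called in L2H, 225 (25.2%) differed between the arms. The difference contains the L2H change by which the 894 were chosen, so a share above 4.27% is built in. The median difference over all transcripts tested was 0.12 on the log2 scale, and -0.01 with quantile-normalized values and -0.03 with equal upper quartiles. The share of differences with a higher change in L2H was 70.5%, and 47.8% and 40.4% under these scalings, so neither direction held the majority throughout. The number of differences fell to 870 and 926 without L2H 4h library 1 or 2, to 789 without L2H 24h library 2, and to 709 and 907 when H2L 4h lacked library 1 or 2.

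The largest differences towards a lower change in L2H were in c50329_g5_i1 and c48260_g3_i1. The transcript c50329_g5_i1 had 0.82, 1.06 and 3.17 units at L2H 24h, against 1.42, 2.18 and 60.1 at L2H 4h. It had 104, 145 and 108 units at H2L 24h, against 0.54, 0.82 and 1.15 at H2L 4h. The log2 difference between the arms was -7.67 (SE 1.15, adjusted p = 0.00142), and -6.18 without L2H 4h library 3 (adjusted p = 5.83e-05). The transcript c48260_g3_i1 had 0.80, 0.90 and 2.84 units at L2H 24h, against 0.71, 1.16 and 38.1 at L2H 4h, and 63.9, 64.7 and 63.7 units at H2L 24h, against 0.70, 0.12 and 0.48 at H2L 4h. Its log2 difference was -6.68 (SE 1.13, adjusted p = 0.00367), and -5.23 without L2H 4h library 3. In L2H neither was called between 24h and 4h (adjusted p = 0.356 and 0.548), and library 3 at 4h alone was high. At L2H 0h, c50329_g5_i1 had 154, 131 and 60.5 units and c48260_g3_i1 had 93.8, 96.0 and 31.7. All 3 libraries at 0h thus held both transcripts, and libraries 1 and 2 at 4h held little of them.

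The largest differences towards a higher change in L2H were in c43486_g1_i1 and c59800_g1_i1, both low throughout L2H. The transcript c43486_g1_i1 had 1.72, 0.53 and 1.03 units at L2H 24h, against 0.60, 0 and 0 at L2H 4h. It had 0.55, 1.14 and 1.2 units at H2L 24h, against 16.7, 20.2 and 36.4 at H2L 4h. The log2 difference was 4.43 (SE 0.42, adjusted p = 4.23e-05). The transcript c59800_g1_i1 stayed at 0.58 units or less in the 6 L2H libraries, and had 2.67, 3.30 and 5.80 units at H2L 24h, against 48.9, 39.6 and 154 at H2L 4h. Its log2 difference was 4.03 (SE 0.59, adjusted p = 0.00119). In L2H neither was called between 24h and 4h (adjusted p = 0.186 and 0.896), so both differences came with falls in H2L.

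**Figure D5:**
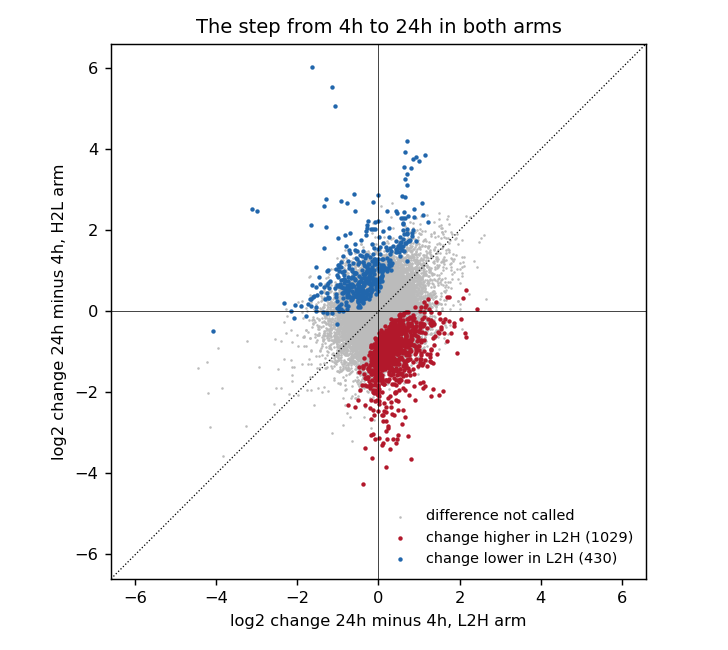
Log2 change at 24h over 4h in L2H (horizontal axis) and in H2L (vertical axis), 1 point per transcript tested. Red marks the 1029 transcripts whose change was higher in L2H, blue the 430 whose change was lower, and the dotted line equal change; most red points lie below 0 on the H2L axis and near 0 on the L2H axis.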

How the data were processed

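The authors deposited 1 table of 43236 transcripts with a signal of abundance per library, scaled for length and depth; its exact unit (FPKM or TPM) and the assembler are not given in the sources used here. FastQC, Bowtie2 and RSEM are named, without versions, per the submitters' processing notes. Columns were matched to samples by title, and 0 columns belonged to no sample. In 21324 transcripts with values under 5, 15.5% had values within 0.2 of whole multiples of their lowest value, so reads could not be recovered and no count model, counting interval or floor is given.

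The test covered transcripts that reached a value of 1 in 3 or more libraries (34166, 79.0%). Limma 3.58.1 in R 4.3.3 fitted log2(value + 1) with 1 mean per group over all 18 libraries and a trend in the prior variance, two-sided, with Benjamini-Hochberg adjustment over all transcripts tested. The pseudocount makes log2 changes of low transcripts too small. The fit was run on simulated data with independent noise in each library. Such data cannot show how a departure shared by many transcripts of a library, as in library 3, affects the calls.

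Named transcripts were, in each direction, the 2 largest changes (called, a higher-group mean of 10 or more, no overlap), the 2 largest differences between arms by the same minimum (no overlap in at least 1 arm), the 2 most abundant called, the 2 most abundant listed at 0 at the other time, and any still called with libraries 1 and 2 averaged. The comparison, lists and rules were chosen with earlier results of these data known. Alternatives changed 1 choice at a time: libraries used, block, scaling, filter, pseudocount, weights, trend and threshold.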

Additional observations from a re-analysis of the deposited data

Results flagged for a closer look

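The change from 4h to 24h differed between the L2H and H2L arms in 1459 of the transcripts tested, by a test of the difference itself (limma, adjusted p under 0.05). Among the named transcripts 6 differed. The log2 difference, L2H minus H2L, was 4.43 for c43486_g1_i1, 4.03 for c59800_g1_i1 and 2.79 for c22914_g1_i1. It was -7.67 for c50329_g5_i1, -6.68 for c48260_g3_i1 and -3.61 for c65355_g1_i1, which all L2H 24h libraries list at 0, so that its difference depends on the pseudocount. Other sizes depend on it too. With pseudocounts of 0.1 and 5 the difference was 7.02 and 2.47 for c43486_g1_i1, and 4.97 and 3.08 for c59800_g1_i1. It was -9 and -5.52 for c50329_g5_i1, and -8.4 and -4.5 for c48260_g3_i1. The transcript c22914_g1_i1 had 6.62, 5.10 and 6.04 units at L2H 24h, against 0.69, 0.49 and 0.49 at L2H 4h, and 10.4, 11.8 and 12.5 units at H2L 24h, against 17.6, 15.8 and 22.8 at H2L 4h. It was thus called higher at 24h in L2H and lower in H2L (log2 change -0.64, adjusted p = 0.0183). Groups of 3 libraries are too small for a formal outlier test of single values, and none was made.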

How the results depend on the processing

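The number of transcripts called between L2H 24h and 4h (894) and the number whose change differed between the arms (1459) stayed within 1.5 times with no filter, a minimum value of 10, pseudocounts of 0.1 and 5, no trend, quantile or upper-quartile scaling, and the replicate block (1096 and 2056). The members of the lists were less stable. Under these settings 599 to 843 of the 894 and 1027 to 1370 of the 1459 were called again with the same direction. Both lowest numbers came with the minimum value of 10, where 13583 transcripts were tested. With the block, c39956_g1_i1 and c45860_g1_i1 kept their changes of 1.63 and 0.83 and were not called (adjusted p = 0.0784 and 0.0670), and the other named calls stood. The library numbers were not taken as pairs: deviations of same-numbered libraries at 24h and 4h had r of 0.0821, 0.0609 and 0.152 in L2H, although 6 of 6 L2H libraries had their highest r with their own number. The counts were 5297 and 5497 within libraries 1 and 2, 1 and 61 with these averaged, 2499 and 2318 without library 3 of L2H at 0h and 4h, 4230 and 5365 with array weights, 138 and 371 at an adjusted p under 0.01, and 0 and 33 with a 2-fold minimum (limma; 170 and 439 at an unadjusted p under 0.05). Fitting the compared groups alone gave 57, of which 38.6% were higher, and 1343. Not called in that fit were c47579_g1_i1, c43786_g1_i1, c39956_g1_i1, c45860_g1_i1, c44730_g1_i1 and c31666_g1_i1 (limma, adjusted p = 0.0646 to 0.282). The other named calls stood in it. Leaving out 1 library at a time gave 109 to 1871 and 709 to 1878. No named change reversed its direction. The share of transcripts whose direction library 3 repeated was 68.2% with a minimum value of 10 and 74.6% at an adjusted p under 0.01. The 9 transcripts listed at 0 at 4h and 16 listed at 0 at 24h became 2 and 2 with at least 2 units at the other time, 0 and 1 with at least 5, 72 and 95 in libraries 1 and 2, and 30 and 36 when values under 0.5 were taken as 0. The 0h mean lay between the later means for 1629 called higher and 696 called lower within libraries 1 and 2, and for 820 and 328 without library 3 at 0h and 4h. Why the counts moved between settings was not tested. The unknown depth limits what can be said of low transcripts.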

Other observations

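Transcripts whose identifiers share their first part, called a component here, may share reads. Of the 894 called transcripts, 477 lay in components with several tested transcripts, of which 2.87% were called, against 2.38% of transcripts alone in their component. In 77 components 2 or more transcripts were called, 168 in all, and in all 77 the transcripts of a component moved in the same direction. The component c47597 held the most, with 4 transcripts called higher at 24h, a component chosen after its values were seen. Their log2 changes were 0.81 for c47597_g2_i2, 1.51 for c47597_g5_i1, 0.91 for c47597_g6_i1 and 1.2 for c47597_g7_i1.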
